A study of Mus musculus with 60 samples.

Results

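Polyadenylated RNA of 2 populations of C3H10T1/2 cells, labelled 23-CATA and 23-Tet1, was compared at day 2 of adipocyte differentiation. The comparison rests on 6 of the 60 samples of the series, 3 libraries of 23-CATA and 3 of 23-Tet1, all collected at day 2 and chosen by their sample titles. The labels give neither the meaning of the names 23-CATA, 23-Tet1 and 23-NC nor whether each population is 1 clone or a pool, nor the promoter of any construct. The genotype tags of the 3 23-Tet1 samples count upward and differ from their titles, as do those of 11 samples of the series, and the titles were used. Both populations had the same culture and induction protocol per the labels. They were grown in DMEM with 10% fetal bovine serum, held for a day after confluence, and moved at day 0 into a medium with 1 µM dexamethasone (a glucocorticoid), 0.5 mM 3-isobutyl-1-methylxanthine (a phosphodiesterase inhibitor), 10 µg/ml insulin, 1 µM rosiglitazone (a PPARγ agonist) and 1 nM T3 (thyroid hormone). The induction lasted 48 h, so day 2 is the end of exposure to the hormone mixture, when it was exchanged for medium with 5 µg/ml insulin. Nothing in the labels says that the 3 libraries of a group came from separate cultures. Every p-value rests on the spread between libraries of a group, pooled over the 12 groups fitted together. That spread may be technical.

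C3H10T1/2 is a mouse embryonic fibroblast line with the properties of mesenchymal stem cells. It becomes fat cells when glucocorticoid, cyclic AMP and insulin signals first induce the early regulators C/EBPβ and C/EBPδ, which then switch on PPARγ and C/EBPα, the pair of transcription factors that maintain the adipocyte state. TET1 is one of the mammalian dioxygenases that oxidise 5-methylcytosine, a step on the way to DNA demethylation, and the series title names it as a promoter of adipogenesis. In the course of conversion, preadipocytes lose fibroblast matrix and cytoskeletal genes and gain enzymes of triglyceride storage, fatty acid oxidation and mitochondrial respiration.

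The authors' table gives FPKM, fragments per kilobase of transcript length, scaled to the mapped fragments of each library, for 24982 genes in 36 libraries (23-CATA, 23-Tet1 and 23-NC at days 0, 2, 4 and 6). Depth, read from the smallest steps between low FPKM values, was 12.97 to 14.82 M fragments in the 23-CATA and 12.55 to 16.23 M in the 23-Tet1 libraries of day 2. Within each group the libraries correlated at 0.994 or more on log2(FPKM + 1), against at most 0.977 with libraries of other groups, and no library stood apart. The FPKM of a library summed to 571198 to 617693 in 23-CATA and 503085 to 534522 in 23-Tet1. One transcript, Fabp4, made up 4.32% to 4.70% of that sum in 23-CATA and 0.277% to 0.312% in 23-Tet1. In the 23-NC libraries of day 2 its share was 0.468% to 0.482%, above that of 23-Tet1. Differences below are those of mean log2(FPKM + 1), 23-CATA minus 23-Tet1, with the standard error of the fit, and they understate the fold change of genes of low level. A gene that rose or fell is one higher or lower in 23-CATA than in 23-Tet1, not one that changed over time. FPKM is a level per transcript length. In bulk RNA a change in the number of cells of a type and a change in RNA per cell cannot be told apart.

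Of 12231 genes tested, 8241 (67.4%) differed at a Benjamini-Hochberg adjusted p under 0.05 in limma, 3705 (30.3%) higher and 4536 (37.1%) lower in 23-CATA. Differences of at least 1 log2 unit were fewer, with 904 genes higher and 824 lower (14.1% together). The 3 libraries of one group lay wholly above or below the 3 of the other for 8644 genes (70.7%), which is the background for every statement below that 2 groups do not overlap. Genes named as the largest rises or falls, of all genes or of a list, were chosen from these. Their separation is therefore not a result. The median difference of all genes tested was −0.05. With calls this common, a share of a gene group near 30.3% higher and 37.1% lower is that of the genes at large, and the groups below are read against those shares. The balance depends on the scaling, with 45.0% of calls higher as deposited, 46.3% under quantile normalisation and 51.1% under median-ratio scaling (4175 higher and 3993 lower).

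Tet1 itself (mm10, chr10:62804570-62908996, minus strand) was measured first. It had 21.6, 16.8 and 18.4 FPKM in 23-CATA, against 5.74, 7.35 and 7.46 FPKM in 23-Tet1, and 0.02, 0.02 and 0.03 FPKM in the 23-NC libraries of the same day. Each 23-CATA library lay above each 23-Tet1 library, and all 6 lay far above 23-NC. The difference between 23-CATA and 23-Tet1 was 1.34 ± 0.11 (adjusted p = 8.88e-12). The table holds 1 value per gene, so RNA from an introduced construct and from the resident gene, or from part and the whole of the coding sequence, cannot be told apart. The other TET genes had other values. Tet3, which encodes another dioxygenase of the family, had 10.1, 9.23 and 9.46 FPKM in 23-CATA, against 16, 19.2 and 18.7 FPKM in 23-Tet1, groups that do not overlap, and fell by 0.84 on the log2 scale (adjusted p = 1.55e-05). Tet2 had 5.62, 4.09 and 5.31 FPKM in 23-CATA, against 3.89, 5.48 and 5.1 FPKM in 23-Tet1. Those ranges overlap, and the difference of 0.05 did not pass the test (95% interval −0.29 to 0.38). The sign of that small value turned when 23-CATA replicate 1 or 23-Tet1 replicate 1 was left out.

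Of 14 tested genes for TET and DNA methylation enzymes and their partners, 3 rose, 8 fell and 3 did not pass, with a median of −0.44. The other two that rose were Gadd45a, a DNA damage and stress response gene (44.5 ± 4.88 FPKM in 23-CATA and 19.7 ± 3.69 FPKM in 23-Tet1, SD, n = 3 each), and Uhrf1, which guides the maintenance methyltransferase to replicated DNA. Uhrf1 had 14.1, 12.4 and 12.3 FPKM in 23-CATA, against 7.19, 8.45 and 7.57 FPKM in 23-Tet1. The largest falls were those of Apobec3, a cytidine deaminase of antiviral defence (−1.28 ± 0.09), and Gadd45b (−1.14 ± 0.11).

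The largest rises at day 2 by the naming rule included Lcn2, Gpd1, Retnla, Mrap, Slpi and Lpl. Lcn2 (mm10, chr2:32384633-32388252, minus strand), which encodes lipocalin 2, an iron-scavenging acute-phase protein made by adipocytes and neutrophils, had 3185, 3850.4 and 3857 FPKM in 23-CATA, against 18.6, 14.6 and 14.8 FPKM in 23-Tet1. The means differed 227-fold and the log2 difference was 7.74 ± 0.13 (adjusted p = 1.59e-28). Gpd1 (mm10, chr15:99717515-99725005, plus strand), the enzyme that makes glycerol 3-phosphate for triglyceride synthesis, had 2117, 2052 and 2191 FPKM in 23-CATA, against 20.4, 19.7 and 18.4 FPKM in 23-Tet1. Its mean was 109 times higher in 23-CATA, and its level in 23-NC was 3.4 ± 0.185 FPKM. Lpl, the lipase that releases fatty acids from circulating triglyceride, had 396, 376 and 401 FPKM in 23-CATA, against 8.09, 8.39 and 8.45 FPKM in 23-Tet1. The libraries of a group sat within a narrow band for all 3 genes, and the groups were separated by far more than that band. Retnla, which encodes the secreted protein FIZZ1, had 95.3, 107 and 103 FPKM in 23-CATA, against 0.23, 0.2 and 0 in 23-Tet1, so 1 of the 23-Tet1 libraries is listed at 0. Mrap, an accessory protein of melanocortin receptors, had 122, 126 and 137 FPKM in 23-CATA, against 1.57, 1.24 and 1.17 FPKM in 23-Tet1. Slpi, a secreted inhibitor of leukocyte proteases, had 156, 179.6 and 170.2 FPKM in 23-CATA, against 2.27, 2.84 and 2.46 FPKM in 23-Tet1.

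The remaining 6 of the 12 largest rises were Slfn2, Ccl9, Acsm3, Ces1f, Ppa1 and Cmbl, with log2 differences from 5.67 for Slfn2 to 4.45 for Cmbl. Slfn2 and Ces1f have close relatives in their gene families, so their levels are less certain where the counting split reads between them. Ppa1, the cytosolic enzyme that splits pyrophosphate, was among the most abundant of them, with 1157, 1304 and 1316 FPKM in 23-CATA, against 50.7, 45.5 and 49.6 FPKM in 23-Tet1. Acsm3, a mitochondrial medium-chain acyl-CoA synthetase, had 32.5, 34.1 and 36.4 FPKM in 23-CATA and was close to 0 in 23-Tet1 (0.08, 0.03 and 0.04 FPKM).

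The largest falls by the same rule were led by Tnc, Klf2, Osr1 and Cryab. Tnc (mm10, chr4:63959785-64047015, minus strand), which encodes the matrix glycoprotein tenascin C, had 2.93, 2.5 and 2.12 FPKM in 23-CATA, against 92.6, 111 and 103 FPKM in 23-Tet1. The means differed 40.7-fold. Klf2 (mm10, chr8:72319033-72321656, plus strand), a Krüppel-like transcription factor that represses Pparg in preadipocytes, had 2.04, 1.82 and 1.69 FPKM in 23-CATA, against 73.1, 72.3 and 61.97 FPKM in 23-Tet1. It fell by 4.62 on the log2 scale (adjusted p = 3.57e-23). Osr1, a transcription factor of embryonic connective tissue, had 6.72, 6.93 and 5.54 FPKM in 23-CATA, against 134, 129 and 136 FPKM in 23-Tet1. Cryab, a small heat shock protein, had 7.15, 7.05 and 6.78 FPKM in 23-CATA, against 123, 121 and 114 FPKM in 23-Tet1. For these 4 genes the 23-NC mean at day 2 lay above every 23-CATA library and below every 23-Tet1 library. It was 8.78 ± 0.544 FPKM for Tnc, 21.2 ± 0.922 for Klf2, 26.1 ± 0.867 for Osr1 and 55.05 ± 4.7 for Cryab (SD, n = 3). Beside 23-NC, the gap thus holds both lower values in 23-CATA and higher values in 23-Tet1, a side-by-side reading without a test.

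The other 8 falls were Fam180a, Nrep, Ogn, Calml4, Aspn, Prrx2, Clca3a1 and Sned1, from −3.78 to −3.18. Ogn and Aspn encode small leucine-rich proteoglycans that bind collagen and growth factors. Ogn had 14.9, 14.4 and 19.7 FPKM in 23-CATA, against 227, 182 and 218 FPKM in 23-Tet1. Aspn had 15.9, 16.1 and 19.12 FPKM in 23-CATA, against 204, 145 and 183 FPKM in 23-Tet1. Prrx2, a homeobox factor of limb and craniofacial mesenchyme, had 13.1, 13.2 and 14.9 FPKM in 23-CATA, against 139, 168 and 114 FPKM in 23-Tet1. No 23-CATA library reached the lowest 23-Tet1 library for any of the 8, as the naming rule required.

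**Figure D1:**
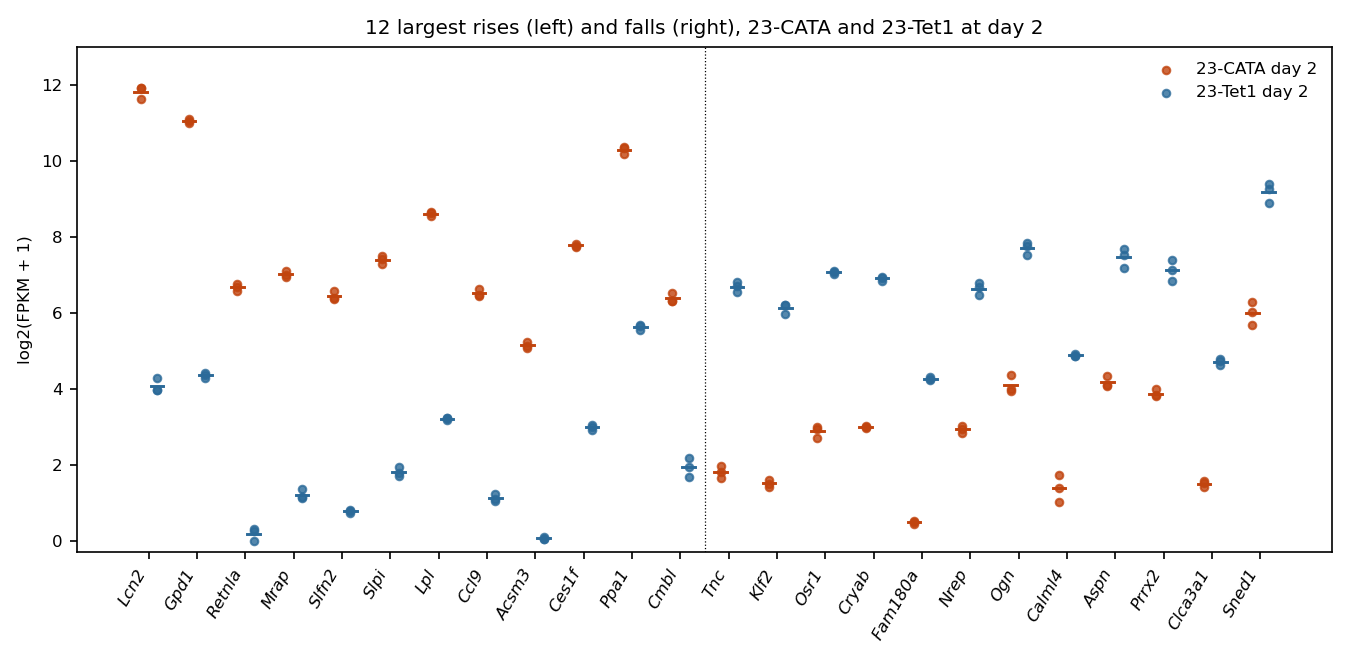
Each point is 1 library at day 2, with 23-CATA left of 23-Tet1 for each gene, and the bar is the mean of 3 libraries. The y axis is log2(FPKM + 1). The 12 genes on the left are the largest rises by the naming rule and the 12 on the right the largest falls; the 2 groups do not overlap for any of the 24, as that rule required.

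The core adipogenic regulators differed unequally. Cebpa (mm10, chr7:35119293-35121928, plus strand), which encodes C/EBPα, had 239, 255 and 287 FPKM in 23-CATA, against 14.8, 14.9 and 13.2 FPKM in 23-Tet1, an 18.2-fold difference of means. Pparg, the receptor that rosiglitazone activates, had 100.5, 109.7 and 122 FPKM in 23-CATA, against 29.4, 26.7 and 27.7 FPKM in 23-Tet1 and a difference of 1.94 ± 0.08. Both genes were higher in each 23-CATA library than in any 23-Tet1 library. Rxra, the partner with which PPARγ binds DNA, fell by 0.31 on the log2 scale, with 65.8, 61.8 and 57.6 FPKM in 23-CATA, against 74.4, 82.3 and 73.2 FPKM in 23-Tet1. Cebpb, the early regulator, had 93.6, 74.2 and 98.9 FPKM in 23-CATA, against 56.2, 112 and 31.3 FPKM in 23-Tet1, and the wide 23-Tet1 libraries enclose the 23-CATA ones. Its difference was 0.59 ± 0.42 (adjusted p = 0.22, 95% interval −0.27 to 1.45), and without 23-Tet1 replicate 2 it was 1.05 with an adjusted p of 0.037.

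Among 29 tested adipogenic transcription factors and cofactors, 11 rose and 12 fell, shares near those of all genes, with a median of 0.16; with median-ratio scaling 14 rose and 12 fell. Klf15, a glucocorticoid-induced Krüppel-like factor of mature fat, had 17.1, 18.97 and 18.4 FPKM in 23-CATA, against 1.44, 1.84 and 1.35 FPKM in 23-Tet1. Ppargc1b, a coactivator of mitochondrial genes, had 12.5, 10.6 and 11.7 FPKM in 23-CATA, against 1.56, 1.69 and 1.73 FPKM in 23-Tet1. Both stood well above their 23-Tet1 libraries. Klf4, which acts upstream of Cebpb, had 9.66, 9.97 and 8.42 FPKM in 23-CATA, against 39.03, 36.5 and 38.6 FPKM in 23-Tet1, and Srebf1, the insulin-responsive regulator of fatty acid synthesis, had 48.2, 48.1 and 39.2 FPKM in 23-CATA, against 82.3, 93.8 and 82.6 FPKM in 23-Tet1. Both fell, by 1.92 and 0.92 on the log2 scale.

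Downstream adipocyte markers were higher in 23-CATA with few exceptions. Of 34 listed, 32 passed the filter on low values. Of these 29 rose, 1 fell and 2 did not pass, against 30.3% and 37.1% of all genes, and their median difference was 2.88 (all genes, −0.05). Summed over the list, 23-CATA libraries had 38897 to 42512 FPKM and 23-Tet1 libraries 2846 to 3075 FPKM. Most of that sum was Fabp4 (mm10, chr3:10204088-10208576, minus strand), the cytosolic fatty acid carrier of adipocytes, with 25696, 26127 and 29024 FPKM in 23-CATA, against 1666, 1416 and 1458 FPKM in 23-Tet1. It was the most abundant transcript of 23-CATA at day 2, 17.8 times its level in 23-Tet1. Plin1, the coat protein of large lipid droplets, had 408, 402 and 402 FPKM in 23-CATA, against 30.02, 29.9 and 27.1 FPKM in 23-Tet1. Adipoq, the hormone adiponectin, had 280.1, 311 and 343 FPKM in 23-CATA, against 38.9, 38.3 and 36.6 FPKM in 23-Tet1. Cd36, the fatty acid transporter of the membrane, had 38.6, 38.5 and 48.8 FPKM in 23-CATA, against 3.04, 2.37 and 2.53 FPKM in 23-Tet1. The groups of each of these 4 genes lay far apart, with little spread inside a group.

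Of the adipocyte markers tested, 3 did not rise. Plin4, a droplet coat protein of early adipogenesis, was the member that fell, with 266, 247 and 231 FPKM in 23-CATA, against 279.6, 329 and 291 FPKM in 23-Tet1 and a difference of −0.27 ± 0.08 (adjusted p = 0.00336). Acaca, the acetyl-CoA carboxylase that makes malonyl-CoA for fatty acid synthesis, differed by 0.20 (95% interval −0.07 to 0.47) and Nnat by 0.37 (95% interval −0.08 to 0.82), neither past the test. Lep, leptin, and Rbp4 were below the filter. The adipocyte markers Fabp4, Plin1 and Adipoq were present in both populations, while Cfd, adipsin, was low, at 5.52 ± 1.66 FPKM in 23-CATA and 0.16 ± 0.139 in 23-Tet1 (SD, n = 3 each). Acaca, Nnat and Cfd were singled out after their values were seen.

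Lipid droplet genes rose in 12 and fell in 2 of 15 tested (median 1.36). G0s2, an inhibitor of the triglyceride lipase ATGL, had 439, 466 and 533 FPKM in 23-CATA, against 26.8, 27.2 and 22.3 FPKM in 23-Tet1. Cidec, which fuses droplets, had 649, 667 and 751 FPKM in 23-CATA, against 73.4, 78.5 and 69.04 FPKM in 23-Tet1. Hsd17b11, a droplet-associated dehydrogenase, fell slightly together with Plin4 (−0.26 ± 0.07).

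Fatty acid synthesis and sterol synthesis, which share regulators of the SREBP family, differed in direction. Of 16 fatty acid synthesis enzymes 10 rose and 5 fell (median 0.67). Scd1, the main stearoyl-CoA desaturase, had 1241, 1173 and 1152 FPKM in 23-CATA, against 55.1, 59.5 and 62.4 FPKM in 23-Tet1. Acacb, the carboxylase isoform at the mitochondrial membrane, had 19.11, 15.8 and 15.7 FPKM in 23-CATA, against 1.15, 1.17 and 1.06 FPKM in 23-Tet1. Acly and Elovl6, which supply acetyl-CoA and lengthen palmitate, fell, by 1.15 and 1.16 on the log2 scale, and Fads2, the desaturase of polyunsaturated fatty acids, had 13.3, 11.2 and 11.7 FPKM in 23-CATA, against 68.98, 73 and 65.3 FPKM in 23-Tet1. Of 26 genes of cholesterol synthesis and sterol control, 5 rose and 17 fell (median −0.77). The list was not uniform. Hmgcs1, which makes HMG-CoA, rose with 231, 226 and 250.4 FPKM in 23-CATA, against 92.5, 84.2 and 87.3 FPKM in 23-Tet1. Cyp51, the lanosterol demethylase, rose with 60.5, 60.3 and 62.2 FPKM in 23-CATA, against 27.9, 27.7 and 29.3 FPKM in 23-Tet1. Stard4, a carrier of cholesterol between membranes, was among the falls, with 3.13, 3.31 and 3.76 FPKM in 23-CATA, against 18.5, 18.03 and 19.8 FPKM in 23-Tet1.

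Oxidative genes rose broadly. Of 30 fatty acid oxidation genes 26 rose and 2 fell (median 1.17). Crat, carnitine acetyltransferase, had 115, 122 and 116 FPKM in 23-CATA, against 22.6, 23.4 and 21.96 FPKM in 23-Tet1, and Pex11a, which divides peroxisomes, had 35.3, 36.8 and 35.8 FPKM in 23-CATA, against 7.26, 6 and 5.54 FPKM in 23-Tet1. Cpt1a, the liver-type carnitine palmitoyltransferase, fell, with 11.5, 9.53 and 8.79 FPKM in 23-CATA, against 25.2, 28.4 and 27.9 FPKM in 23-Tet1. All 39 nuclear-encoded genes of the respiratory chain and ATP synthase rose, 39 of 39, with a median of 1.09 and with the same count under quantile normalisation and median-ratio scaling. Their summed level was 15306 to 16993 FPKM in 23-CATA and 7440.1 to 8275 FPKM in 23-Tet1. The largest differences of the list were those of Cycs, Cox8b and Cox7a1. Cycs, cytochrome c, had 325, 334 and 411 FPKM in 23-CATA, against 44.9, 35.5 and 38.05 FPKM in 23-Tet1, a difference of 3.14 ± 0.11. The differences of the low-level genes Cox8b (3.10 ± 0.22) and Cox7a1 (2.99 ± 0.31) rest on the pseudocount. Both are listed at 0 in every 23-Tet1 library, with values given below. The other 36 members differed by 0.52 for Ndufs8 to 1.79 for Uqcrfs1; as examples chosen after their values were seen, Atp5b, the catalytic subunit of ATP synthase, had 1527, 1613 and 1590.1 FPKM in 23-CATA, against 684, 683 and 671 FPKM in 23-Tet1, and Sdha, of complex II, had 146, 145 and 142 FPKM in 23-CATA, against 67.3, 68.8 and 65.2 FPKM in 23-Tet1.

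Genes of brown and beige fat were low in both populations. Of 20 listed, 12 passed the filter; 9 rose and 1 fell, with a summed level of 52.4 to 62.8 FPKM in 23-CATA and 20.9 to 21.9 FPKM in 23-Tet1. The 8 below the filter include Ucp1, the uncoupling protein that defines brown fat, which is listed at 0 in all 6 libraries, as is Zic1, while Prdm16 and Dio2 reached at most 0.01 FPKM. Cox8b, Cox7a1 and Elovl3, tissue-specific respiratory subunits and a fatty acid elongase of brown fat, had 5.83, 5.9 and 12.3, 5.66, 8.17 and 7.14 and 6.2, 8.09 and 7.67 FPKM in 23-CATA and are listed at 0 in all 3 23-Tet1 libraries. No fold is given against a listed 0. The member that fell was Tbx15, a T-box factor of mesenchyme, with 4.61, 5.63 and 5.52 FPKM in 23-CATA, against 11.9, 12.3 and 10.8 FPKM in 23-Tet1.

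Of 27 genes of glycolysis and the hypoxia response, 21 rose and 3 fell (median 1.07). Hk2, the inducible hexokinase, had 62.4, 63.9 and 61.4 FPKM in 23-CATA, against 4.76, 5.62 and 5.7 FPKM in 23-Tet1. Pfkfb3, which makes the activator of phosphofructokinase, had 52.2, 47.9 and 49.9 FPKM in 23-CATA, against 3.57, 3.09 and 2.9 FPKM in 23-Tet1, and Ero1l, an oxidase of endoplasmic reticulum protein folding, had 254, 251 and 241 FPKM in 23-CATA, against 17.9, 16.1 and 18.9 FPKM in 23-Tet1. Hif1a, the oxygen-regulated transcription factor subunit, fell, with 43.7, 44.8 and 48.9 FPKM in 23-CATA, against 75.8, 72.5 and 81.7 FPKM in 23-Tet1. The insulin-responsive glucose transporter Slc2a4 (GLUT4) had 17.6, 19 and 17.6 FPKM in 23-CATA and under 1 FPKM in every 23-Tet1 library (0.57, 0.84 and 0.51). Over the 23 tested genes of IGF and insulin signalling, 11 rose and 7 fell. Socs3, a feedback inhibitor of cytokine and insulin signalling, was the largest fall of that list, with 8.85, 7.4 and 8.49 FPKM in 23-CATA, against 79.1, 75 and 77.2 FPKM in 23-Tet1.

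**Figure D2:**
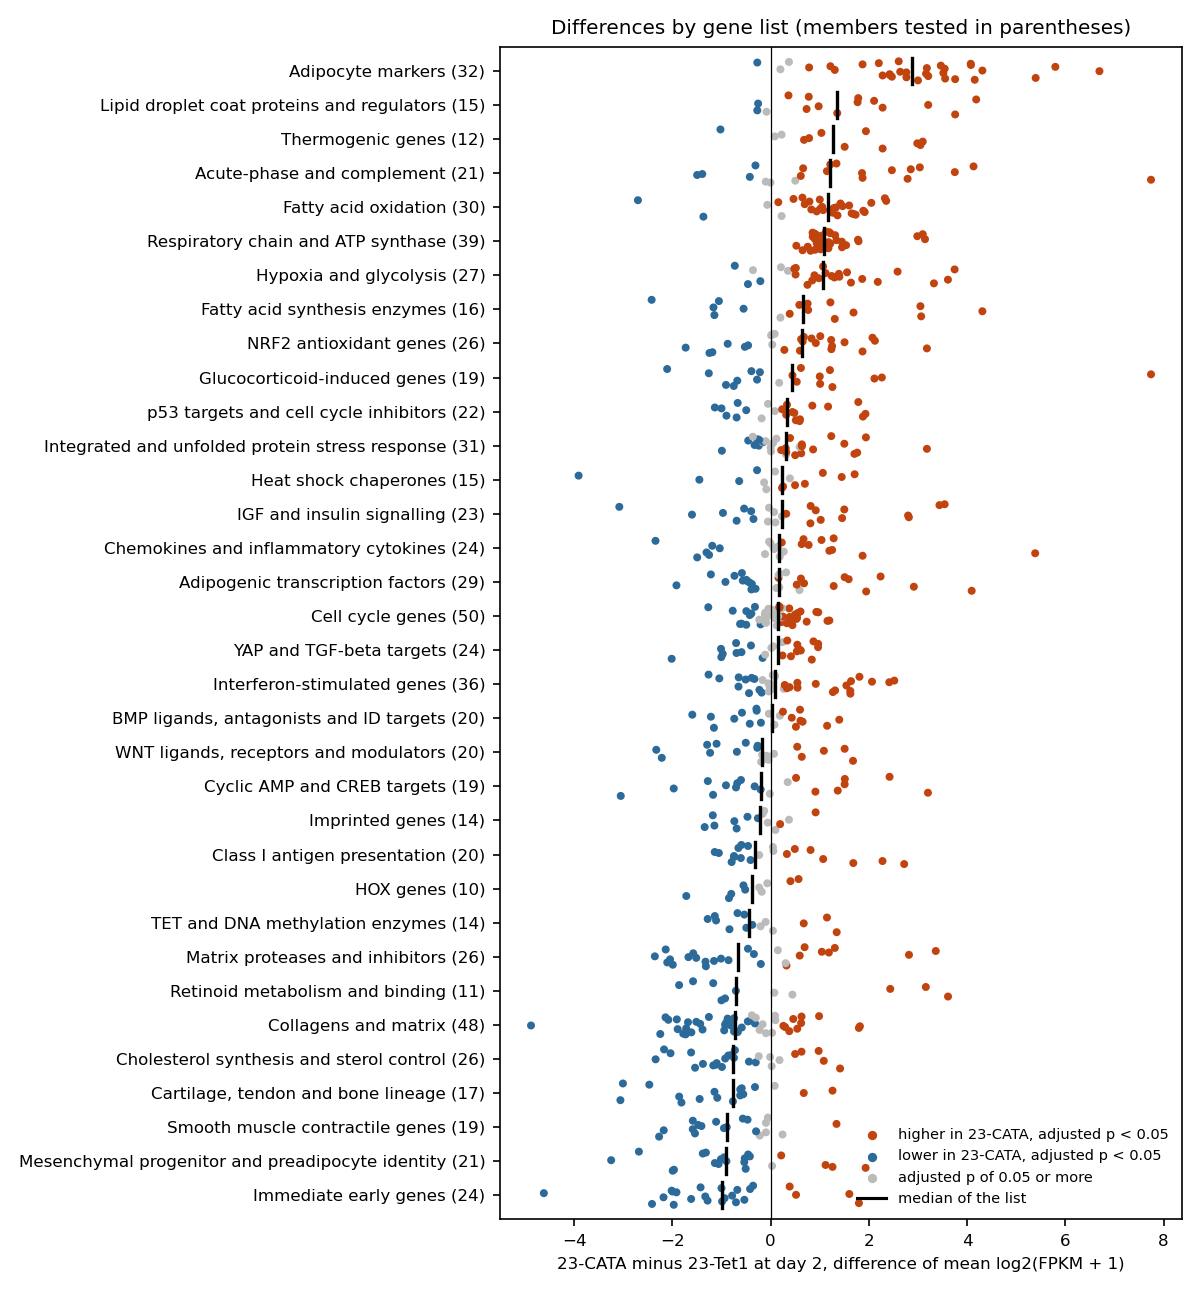
Each point is 1 gene and its x value is the difference of mean log2(FPKM + 1) at day 2, 23-CATA minus 23-Tet1; black bars are list medians, and lists with at least 10 members tested are shown. Adipocyte markers sit farthest to the right with a median of 2.88, all 39 respiratory chain genes lie right of 0, and immediate early genes sit farthest to the left with a median of −0.99.

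Most matrix genes were lower in 23-CATA at day 2. Of 48 tested collagen and matrix genes, 10 rose and 30 fell (median −0.73); the summed level was 7166 to 8663 FPKM in 23-CATA and 14479 to 15775 FPKM in 23-Tet1. Col1a2, a chain of type I collagen, had 273, 279.7 and 219 FPKM in 23-CATA, against 1191, 1252 and 1216 FPKM in 23-Tet1. Nid2, nidogen 2 of basement membranes, had 38.4, 35.4 and 30.6 FPKM in 23-CATA, against 146, 166 and 157 FPKM in 23-Tet1. Basement membrane genes did not all follow: Lamb1, laminin β1, rose with 94.9, 91.1 and 75.9 FPKM in 23-CATA, against 41.3, 45.2 and 43.8 FPKM in 23-Tet1, and Col18a1 rose with 10.04, 10.9 and 8.48 FPKM in 23-CATA, against 2.02, 2.46 and 1.85 FPKM in 23-Tet1. Matrix proteases and their inhibitors had 8 rises and 16 falls among 26. Adamts1, a secreted metalloprotease, had 80.1, 76.1 and 68.1 FPKM in 23-CATA, against 308, 333 and 333 FPKM in 23-Tet1, whereas the protease inhibitor Serpina3n had 193, 199.8 and 194 FPKM in 23-CATA, against 18.8, 17.4 and 18.2 FPKM in 23-Tet1.

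Mesenchymal progenitor and preadipocyte genes fell in 16 and rose in 4 of 21 tested at day 2 (median −0.90). Before induction the balance was the other way, as given below. Pdgfra, the platelet-derived growth factor receptor that marks fat progenitors, had 13.9, 13.9 and 13.9 FPKM in 23-CATA, against 55.1, 59.9 and 60.4 FPKM in 23-Tet1. S100a4, a calcium-binding protein of fibroblasts, had 430.0, 449 and 561 FPKM in 23-CATA, against 3135, 3333 and 2758 FPKM in 23-Tet1. The values of the 2 populations are separated several-fold with little spread. Ly6a, which encodes the surface antigen Sca-1, and Cd44, the hyaluronan receptor, went the other way. Ly6a had 109.7, 125 and 141 FPKM in 23-CATA, against 37.05, 31.2 and 28.1 FPKM in 23-Tet1, and Cd44 had 61.5, 61.01 and 58.7 FPKM in 23-CATA, against 26.01, 27.8 and 28.1 FPKM in 23-Tet1. Fgf7, a growth factor for epithelium, rose by 0.21, a call that was lost without 23-Tet1 replicate 2 (adjusted p = 0.0514).

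Of 17 genes of the cartilage, tendon and bone lineages, 2 rose and 14 fell (median −0.77). Ptn, pleiotrophin, a heparin-binding growth factor of developing skeleton, had 350.2, 359 and 359 FPKM in 23-CATA, against 3236, 2625 and 2788 FPKM in 23-Tet1, and was among the most abundant transcripts that fell. Col2a1, the collagen of cartilage, had 0.37, 0.46 and 0.32 FPKM in 23-CATA, against 10.2, 11.6 and 9.75 FPKM in 23-Tet1. Of 19 smooth muscle contractile genes 1 rose and 13 fell (median −0.89). Acta2, smooth muscle actin, had 6.74, 6.39 and 5.85 FPKM in 23-CATA, against 33.4, 36.7 and 33.01 FPKM in 23-Tet1, and Tpm1, a tropomyosin of stress fibres, had 98.8, 99.6 and 97.96 FPKM in 23-CATA, against 314, 288 and 294 FPKM in 23-Tet1. Among 24 YAP and TGF-β targets 11 rose and 9 fell. Cyr61, a matricellular protein, was the largest fall of that list, with 69.7, 67.3 and 64.02 FPKM in 23-CATA, against 285, 261 and 277 FPKM in 23-Tet1.

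Developmental signalling lists showed no common direction. WNT ligands, receptors and modulators had 5 rises and 9 falls among 20, with Rspo2 and Rspo3, related secreted enhancers of WNT signalling, going opposite ways. Rspo2 had 7.23, 7.21 and 7.33 FPKM in 23-CATA, against 41.1, 38.2 and 42.2 FPKM in 23-Tet1, and Rspo3 had 23.7, 21.6 and 22.4 FPKM in 23-CATA, against 7.84, 6.72 and 7.35 FPKM in 23-Tet1. BMP ligands, antagonists and ID targets had 8 rises and 9 falls among 20, and their median of 0.02 turned negative under quantile normalisation (−0.03). Id1, an inhibitor of basic helix-loop-helix factors, rose by 0.43 in the fit as deposited but did not pass under quantile normalisation (0.07, adjusted p = 0.343). Smad6, the inhibitory Smad of the BMP pathway, had an adjusted p of 0.0439 that lay above 0.05 without the filter and without any of 4 libraries. HOX genes had 2 rises and 5 falls among 10, with Hoxa2 at 7.08, 7.21 and 7.47 FPKM in 23-CATA, against 28.4, 22.3 and 28.2 FPKM in 23-Tet1. Imprinted genes had 2 rises and 7 falls among 14. Of 29 germline genes that promoter methylation is known to silence, 5 passed the filter and 2 rose, and the summed level of the list was 8.93 to 10.8 FPKM in 23-CATA and 7.44 to 9.73 FPKM in 23-Tet1.

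Acute-phase and complement genes rose in 14 and fell in 4 of 21 tested (median 1.21). At day 0 17 of the 21 were higher in 23-CATA, and the change of the difference to day 2 was downward in 16 and upward in 1. Besides Lcn2, Lbp, the lipopolysaccharide-binding protein, had 229.8, 239 and 195 FPKM in 23-CATA, against 11.6, 11.6 and 11.7 FPKM in 23-Tet1. Hp, haptoglobin, had 1101, 1227 and 1120.0 FPKM in 23-CATA, against 164, 178 and 155 FPKM in 23-Tet1, and C3, the central complement component, had 471, 435 and 391 FPKM in 23-CATA, against 108, 129.8 and 117 FPKM in 23-Tet1. Steap4, a metalloreductase of fat tissue, had 13.8, 12.3 and 13.3 FPKM in 23-CATA, against 0.59, 0.7 and 0.88 FPKM in 23-Tet1; it is outside the naming rule and was chosen after its values were seen. The complement proteases C1ra and C1s1 fell, with 8.95, 9.72 and 7.8 FPKM in 23-CATA, against 28.2, 26.04 and 25.7 FPKM in 23-Tet1 for C1ra and 12.2, 10.6 and 10.8 FPKM in 23-CATA, against 30.9, 30.2 and 31.8 FPKM in 23-Tet1 for C1s1. The C/EBP factors are known regulators of acute-phase promoters in liver. The 250 bases before the RefSeq start (GRCm38.p6) are shown for Lcn2 (chr2:32387740-32387989, minus strand), Steap4 (chr5:7960222-7960471, plus strand) and C3 (chr17:57228137-57228386, minus strand). These are 3 members higher in 23-CATA than in 23-Tet1 at day 2 that hold a match to the C/EBP-type letters TTGCNNAA or, on the other strand, TTNNGCAA. The match is in capitals and each sequence reads 5′ to 3′ toward the start.
Lcn2: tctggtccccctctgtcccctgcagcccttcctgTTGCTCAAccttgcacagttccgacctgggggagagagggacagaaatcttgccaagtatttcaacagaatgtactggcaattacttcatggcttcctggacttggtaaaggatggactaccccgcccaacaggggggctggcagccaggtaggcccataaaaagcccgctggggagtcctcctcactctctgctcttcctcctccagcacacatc
Steap4: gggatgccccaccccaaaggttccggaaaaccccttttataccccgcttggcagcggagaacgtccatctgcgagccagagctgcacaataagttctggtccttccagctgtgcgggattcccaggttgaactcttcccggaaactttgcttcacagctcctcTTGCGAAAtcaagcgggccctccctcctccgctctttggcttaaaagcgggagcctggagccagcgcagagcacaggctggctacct
C3: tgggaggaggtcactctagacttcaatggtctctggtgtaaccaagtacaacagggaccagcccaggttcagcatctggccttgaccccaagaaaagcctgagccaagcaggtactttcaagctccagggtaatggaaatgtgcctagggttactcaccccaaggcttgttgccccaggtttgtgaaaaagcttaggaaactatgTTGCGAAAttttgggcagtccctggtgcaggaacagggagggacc
The first base of the match lies 216 bases before the start in Lcn2, 87 in Steap4 and 45 in C3. The RefSeq start of Lcn2 lies 513 bases inside the gene span given above from GENCODE, so that window is within that span, and the start of Steap4 lies 15 bases inside its own. Of 27025 promoter windows of this length, 2582 (9.55%) hold the motif on either strand. Only 15 of the 21 tested members (71.4%) have a window, so no comparison over the list was made. Of these 15 windows 11 hold the motif, 5 of the 8 whose genes rose and 6 of the other 7. The 3 shown were chosen because they hold it, and the matches describe letters and not binding.

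Inflammatory and interferon genes were split at day 2. Interferon-stimulated genes had 16 rises and 10 falls among 36, with a median of 0.09. Bst2, tetherin, which holds virions at the cell surface, had 62.98, 71.9 and 58.99 FPKM in 23-CATA, against 15.8, 14.8 and 13.4 FPKM in 23-Tet1. Irgm1, an immunity-related GTPase, had 8.74, 6.25 and 9.73 FPKM in 23-CATA, against 20.5, 19.8 and 22.5 FPKM in 23-Tet1, the opposite direction. Both genes had groups that do not overlap, as the naming rule required. Class I antigen presentation genes had 7 rises and 10 falls among 20; the H2 genes that rose, such as H2-K1 (16.1, 19.9 and 15.8 FPKM in 23-CATA, against 1.68, 1.53 and 2.11 FPKM in 23-Tet1), are near-identical copies of one another and their reads can be split between them. Chemokines and inflammatory cytokines had 10 rises and 6 falls among 24. Cxcl1, a neutrophil attractant, had 56.4, 50.03 and 59.7 FPKM in 23-CATA, against 22.8, 23.1 and 24.8 FPKM in 23-Tet1, and Ccl2, a monocyte attractant, had 3.67, 3.29 and 3.54 FPKM in 23-CATA, against 14.2, 10.96 and 10.2 FPKM in 23-Tet1. Ptgs2, the inducible cyclooxygenase, had 2.34, 2.28 and 1.65 FPKM in 23-CATA, against 14.98, 13.6 and 15.3 FPKM in 23-Tet1.

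Markers of other cell types were looked at beside these lists. Of 14 macrophage markers 3 passed the filter and 1 of these rose, Cd68, a lysosomal membrane protein, with 27.9, 26.02 and 23.8 FPKM in 23-CATA, against 3.64, 3.19 and 2.77 FPKM in 23-Tet1. The defining leukocyte genes did not accompany it: Ptprc was at most 0.01 FPKM and Adgre1 at most 0.03 FPKM in any of the 6 libraries, Tyrobp and C1qc were at 0 in all 6, and 12 of the 14 stayed under 1 FPKM. The summed level of the list was 26.4 to 29.7 FPKM in 23-CATA and 6.38 to 7.10 FPKM in 23-Tet1. Endothelial markers were under 1 FPKM in 10 of 11, all 6 libraries considered, with Kdr and Tie1 at 0, and Flt1 fell (5.55, 4.76 and 4.19 FPKM in 23-CATA, against 10.5, 11.4 and 12.6 FPKM in 23-Tet1). Epithelial and skeletal muscle markers stayed under 1 FPKM throughout, with Epcam and Myod1 at 0. Of 14 neuronal and glial markers 4 were tested and all 4 fell. The highest was S100b, also made by fat cells, with 8.2, 8.74 and 9.48 FPKM in 23-CATA, against 12.5, 12.1 and 12.6 FPKM in 23-Tet1.

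Immediate early genes, which serum and growth factors switch on within minutes, were lower in 20 of 24 and higher in 4 (median −0.99). Their summed level was 1366 to 1536 FPKM in 23-CATA and 3812 to 4015 FPKM in 23-Tet1. Fos (mm10, chr12:85473890-85477273, plus strand) had 172, 174 and 152 FPKM in 23-CATA, against 669.5, 646 and 646 FPKM in 23-Tet1. Fosb had 58.96, 53.8 and 46.7 FPKM in 23-CATA, against 299, 267 and 296 FPKM in 23-Tet1, and Egr3 had 10.7, 11.3 and 9.12 FPKM in 23-CATA, against 51.7, 46.9 and 52.9 FPKM in 23-Tet1. The 2 populations did not overlap for these subunits of AP-1 and zinc finger factors, as the naming rule required. Fosl1, which encodes the AP-1 subunit FRA1, and Myc went up. Fosl1 had 22.7, 24.6 and 18.7 FPKM in 23-CATA, against 5.39, 5.72 and 5.64 FPKM in 23-Tet1, and Myc had 88.1, 88.4 and 81.4 FPKM in 23-CATA, against 27.8, 28.5 and 26.6 FPKM in 23-Tet1.

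Of 19 glucocorticoid-induced genes 10 rose and 8 fell. The metallothioneins Mt1 and Mt2, metal-binding proteins that glucocorticoids and zinc induce, rose, with 3909, 4159.6 and 4386 FPKM in 23-CATA, against 913, 806 and 871 FPKM in 23-Tet1 for Mt2, though the 2 genes are close relatives whose reads can be shared. Per1, a clock gene with a glucocorticoid response element, had 27.4, 24.8 and 24.3 FPKM in 23-CATA, against 48.04, 49.7 and 48.5 FPKM in 23-Tet1, and Hif3a had 0.94, 0.94 and 0.69 FPKM in 23-CATA, against 6.21, 7.25 and 7.56 FPKM in 23-Tet1, both lower. Of 19 cyclic AMP and CREB targets 7 rose and 10 fell. Pde4b, a cyclic AMP phosphodiesterase, had 10.8, 10.1 and 10.6 FPKM in 23-CATA, against 0.26, 0.29 and 0.2 in 23-Tet1, while Nr4a1, an orphan nuclear receptor, had 21.6, 20.9 and 18.9 FPKM in 23-CATA, against 182, 175 and 174 FPKM in 23-Tet1.

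Of 50 cell cycle genes tested 21 were higher, 10 lower and 19 not called, with a median of 0.15. Ccne1 and Ccne2, the cyclins of S phase entry, were higher, with 8.05, 8.91 and 7.85 FPKM in 23-CATA, against 3.17, 2.7 and 3.64 FPKM in 23-Tet1 for Ccne1. Ccnd1, the growth factor-responsive cyclin D1, was lower, with 9.07, 9.01 and 9.66 FPKM in 23-CATA, against 24.3, 22.4 and 24.4 FPKM in 23-Tet1. Of 22 p53 targets and cell cycle inhibitors 13 rose and 6 fell. Cdkn2c, an inhibitor of CDK4 and CDK6 that is induced in differentiation, had 45.7, 42.3 and 48.7 FPKM in 23-CATA, against 12.4, 11.8 and 13.3 FPKM in 23-Tet1.

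Of 31 genes of the integrated and unfolded protein stress responses 15 rose and 7 fell. Slc7a11, the cystine transporter, had 11.1, 10.6 and 10.7 FPKM in 23-CATA and 0.15, 0.4 and 0.36 FPKM in 23-Tet1, and Asns, asparagine synthetase, had 125, 139 and 146 FPKM in 23-CATA, against 42.05, 41.3 and 40.1 FPKM in 23-Tet1. Of 15 heat shock chaperones 7 rose and 4 fell, or 5 each way under quantile normalisation. Hspd1, the mitochondrial chaperonin, had 682, 721 and 711 FPKM in 23-CATA, against 223, 202 and 219.9 FPKM in 23-Tet1, against the falls of Cryab above and of the cytosolic cochaperone Dnajb1 (18.04, 18.6 and 18.4 FPKM in 23-CATA, against 54.5, 49.3 and 52.1 FPKM in 23-Tet1). Of 26 NRF2 antioxidant genes 16 rose and 6 fell. Sod2, the mitochondrial superoxide dismutase, had 95.2, 98.8 and 104 FPKM in 23-CATA, against 23.9, 22.3 and 22.3 FPKM in 23-Tet1. Hmox1, heme oxygenase 1, had 139, 147 and 146 FPKM in 23-CATA, against 332, 326 and 329 FPKM in 23-Tet1. Retinoid genes had 3 rises and 6 falls among 11, with Dhrs9, a retinol dehydrogenase, at 22.4, 17.8 and 23.3 FPKM in 23-CATA, against 1.38, 1.41 and 1.6 FPKM in 23-Tet1 and the receptor Rarg at 22.7, 21.3 and 20.99 FPKM in 23-CATA, against 68.8, 64.4 and 67.2 FPKM in 23-Tet1.

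Whether the day 2 difference was already there before induction was asked by the same contrast at day 0, where 7850 genes (64.2%) were called, 4023 (32.9%) higher and 3827 (31.3%) lower in 23-CATA. Of the 3705 genes higher at day 2, 1627 were higher at day 0 (43.9% of the first list and 40.4% of the second), 935 were lower and 1143 were not called. Of the 4536 lower at day 2, 1663 were lower at day 0 (36.7% and 43.5%), 1321 were higher and 1552 were not called. The change itself was tested: the difference at day 2 minus that at day 0 passed for 7955 genes (65%), 3518 (28.8%) upward and 4437 (36.3%) downward. That balance turned under quantile normalisation, with 4212 upward and 3750 downward, and was 3915 upward and 3998 downward under median-ratio scaling.

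Adipocyte markers were apart before the hormones were added, 27 of 32 being higher in 23-CATA at day 0. Fabp4 averaged 1985 ± 88.5 FPKM in 23-CATA and 8.54 ± 7.77 FPKM in 23-Tet1 at day 0, and Adipoq 186 ± 4.38 FPKM in 23-CATA and 0.0233 ± 0.0404 FPKM in 23-Tet1 (SD, n = 3 each). Gpd1 averaged 193 ± 6.47 FPKM in 23-CATA and 1.22 ± 0.0635 FPKM in 23-Tet1. On the log2(FPKM + 1) scale the difference of Gpd1 changed by 0.24 ± 0.09 between the days (adjusted p = 0.0192). That value rests on the pseudocount, since 23-Tet1 was at 1.22 FPKM at day 0. The plain ratio of the Gpd1 means was larger at day 0 than at day 2. The difference of Cebpa grew by 0.82 ± 0.12 (adjusted p = 5.88e-07). Those of Fabp4 and Adipoq shrank by −3.85 ± 0.37 and −4.52 ± 0.13. The value of Adipoq rests in part on the pseudocount, since 23-Tet1 was at 0.0233 FPKM at day 0. Lcn2 likewise stood at 404 ± 15.3 FPKM in 23-CATA and 0.233 ± 0.208 FPKM in 23-Tet1 at day 0. Other lists that rose at day 2 were also mostly higher at day 0. Among lipid droplet genes 13 of 15 were higher and 0 lower, and among fatty acid oxidation genes 19 of 30 were higher and 2 lower. Glycolysis and hypoxia genes were higher in 19 of 27 and lower in 2, and NRF2 antioxidant genes higher in 20 of 26 and lower in 1.

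Respiratory genes showed no common direction before induction. At day 0, 7 of 39 were higher, 9 lower and 23 not called, and the difference grew to day 2 in 37 of 39. Cycs averaged 31.4 ± 0.921 FPKM in 23-CATA and 35.7 ± 3.93 FPKM in 23-Tet1 at day 0. Ppa1, at 28.2 ± 0.847 FPKM in 23-CATA and 35.2 ± 0.569 FPKM in 23-Tet1 at day 0, and Acsm3, at 0.69 ± 0.0954 FPKM in 23-CATA and 0.12 ± 0.0854 FPKM in 23-Tet1, had larger differences at day 2. These grew by 4.98 ± 0.12 and 4.48 ± 0.35 (adjusted p = 2.28e-24 and 4.25e-12). The value of Acsm3 rests in part on the pseudocount, since both its day 0 means lay below it. Retnla is listed at 0 in all 6 libraries of day 0. Ceacam1, a cell adhesion molecule, and Cth, which makes cysteine from cystathionine, were lower in 23-CATA at day 0 and higher at day 2 (change of 4.72 ± 0.15 and 4.42 ± 0.17).

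Cell cycle genes had another balance before induction. At day 0 0 were higher and 48 of 50 lower in 23-CATA (median −1.003), and the change to day 2 was upward in 47 and downward in 2. Tk1, the thymidine kinase of S phase, averaged 26.9 ± 0.562 FPKM in 23-CATA and 69.5 ± 0.504 FPKM in 23-Tet1 at day 0, and 16.5 ± 1.62 FPKM in 23-CATA and 7.91 ± 0.166 FPKM in 23-Tet1 at day 2. Among cholesterol genes 23 of 26 were lower at day 0 and 17 at day 2. The matrix and progenitor lists leaned higher in 23-CATA at day 0. Of 21 mesenchymal progenitor genes 14 were higher and 4 lower, and the change to day 2 was downward in 18 and upward in 3. Of 48 collagen and matrix genes 23 were higher and 11 lower (change downward in 39, upward in 2). Of 26 matrix proteases and inhibitors 14 were higher and 3 lower (19 and 2). Of 17 cartilage, tendon and bone genes 11 were higher and 4 lower (13 and 0).

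Immediate early genes were mostly higher before induction and mostly lower at day 2. At day 0 21 of 24 were higher in 23-CATA and 2 lower, and the change to day 2 was downward in 22. Fos averaged 557 ± 13.8 FPKM in 23-CATA and 5.61 ± 0.733 FPKM in 23-Tet1 at day 0, so that 23-CATA was at its highest before induction and 23-Tet1 at day 2. The difference changed by −8.38 ± 0.10 for Fos and −9.26 ± 0.14 for Fosb (adjusted p = 1.2e-31 and 1.05e-28). Nr4a1 followed the same order, with 83.8 ± 2.82 FPKM in 23-CATA and 18.4 ± 2.42 FPKM in 23-Tet1 at day 0. Interferon-stimulated genes were higher in 23-CATA at day 0 in 35 of 36 (median 2.65), and the difference shrank or turned by day 2 in 34. Bst2 averaged 572 ± 10.2 FPKM in 23-CATA and 13.9 ± 3.08 FPKM in 23-Tet1 at day 0. The chemokine Ccl2 averaged 287 ± 9.72 FPKM in 23-CATA and 22.7 ± 3.33 FPKM in 23-Tet1 at day 0, above at day 0 and below at day 2. Of 14 macrophage markers only 3 passed the filter, and these were higher in 23-CATA at day 0. They were led by Cd68 at 32.3 ± 0.505 FPKM in 23-CATA and 1.38 ± 0.496 FPKM in 23-Tet1. The other markers, Ptprc, Adgre1 and Tyrobp among them, did not reach 1 FPKM in 3 of the 36 libraries of all days. A part of macrophages in the chemokine and interferon values was not tested.

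**Figure D3:**
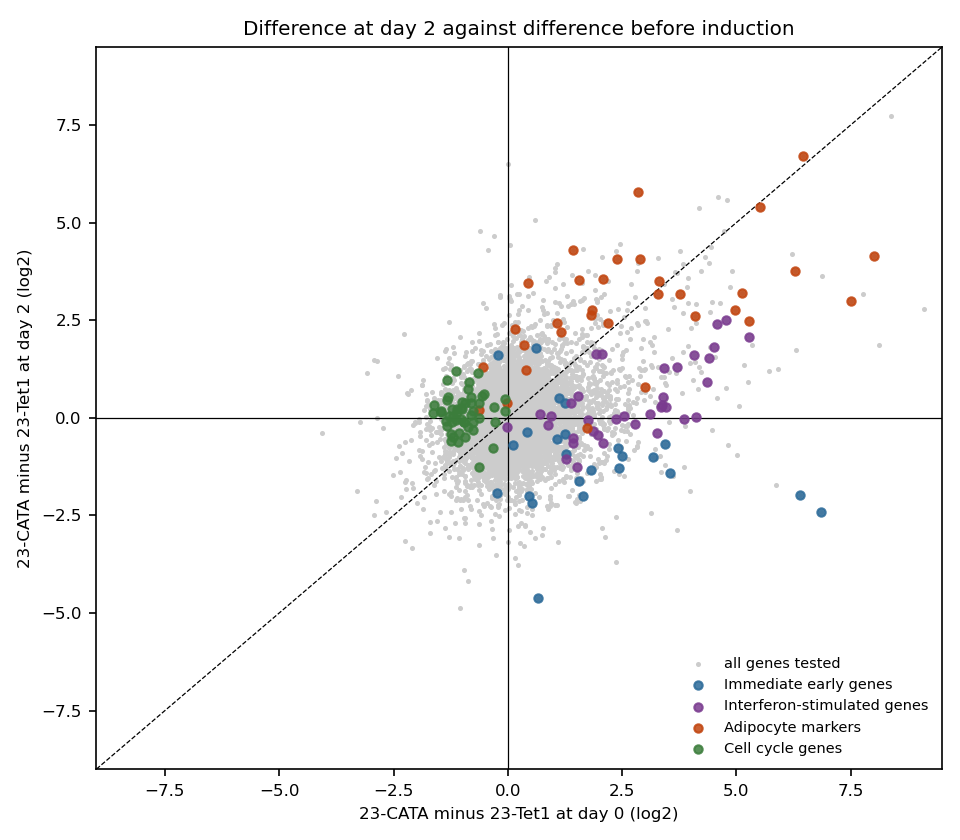
Each point is 1 of 12231 genes; the x axis is the difference of mean log2(FPKM + 1) at day 0 and the y axis that at day 2, both 23-CATA minus 23-Tet1, with equality on the dashed line. Most adipocyte markers lie in the upper right, interferon-stimulated genes spread right of 0 and near 0 in height, immediate early genes fall mostly in the lower right and cell cycle genes left of 0.

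At day 4, 9073 genes (74.2%) were called, 3378 (27.6%) higher and 5695 (46.6%) lower, with a median of −0.16 over all genes. Of the genes lower at day 2, 3366 were lower at day 4 (74.2% of the first list and 59.1% of the second) and 299 were higher, and of those higher at day 2, 2280 were higher at day 4 (61.5% and 67.5%). The difference at day 2 minus that at day 4 passed for 6581 genes (53.8%), 3983 (32.6%) upward and 2598 (21.2%) downward. That split depends on the scaling, with 60.5% of calls upward as deposited, 49.8% under quantile normalisation and 44.0% under median-ratio scaling. All 39 respiratory genes were again higher at day 4, and 39 of 48 matrix genes were lower. Of 50 cell cycle genes 2 were higher and 42 lower at day 4. Lcn2 was 1.01 apart at day 4, a change of 6.74 ± 0.18 from day 4 to day 2 (adjusted p = 1.41e-22).

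At day 6, 8031 genes (65.7%) were called, 3903 (31.9%) higher and 4128 (33.8%) lower. Of the genes higher at day 2, 1832 were higher at day 6 (49.4% of the first list and 46.9% of the second), and of those lower at day 2, 2003 were lower (44.2% and 48.5%). Fabp4 did not pass the test at day 6, at 48563 ± 641 FPKM in 23-CATA and 48369 ± 3946 FPKM in 23-Tet1, with a difference of 0.01 ± 0.26 (adjusted p = 0.98). Cebpa was still 1.02 higher and Lpl 1.69 higher. Ptn had turned, at 498 ± 18.4 FPKM in 23-CATA and 112 ± 8.26 FPKM in 23-Tet1, and Col1a2 differed by 0.09 (adjusted p = 0.353).

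**Figure D4:**
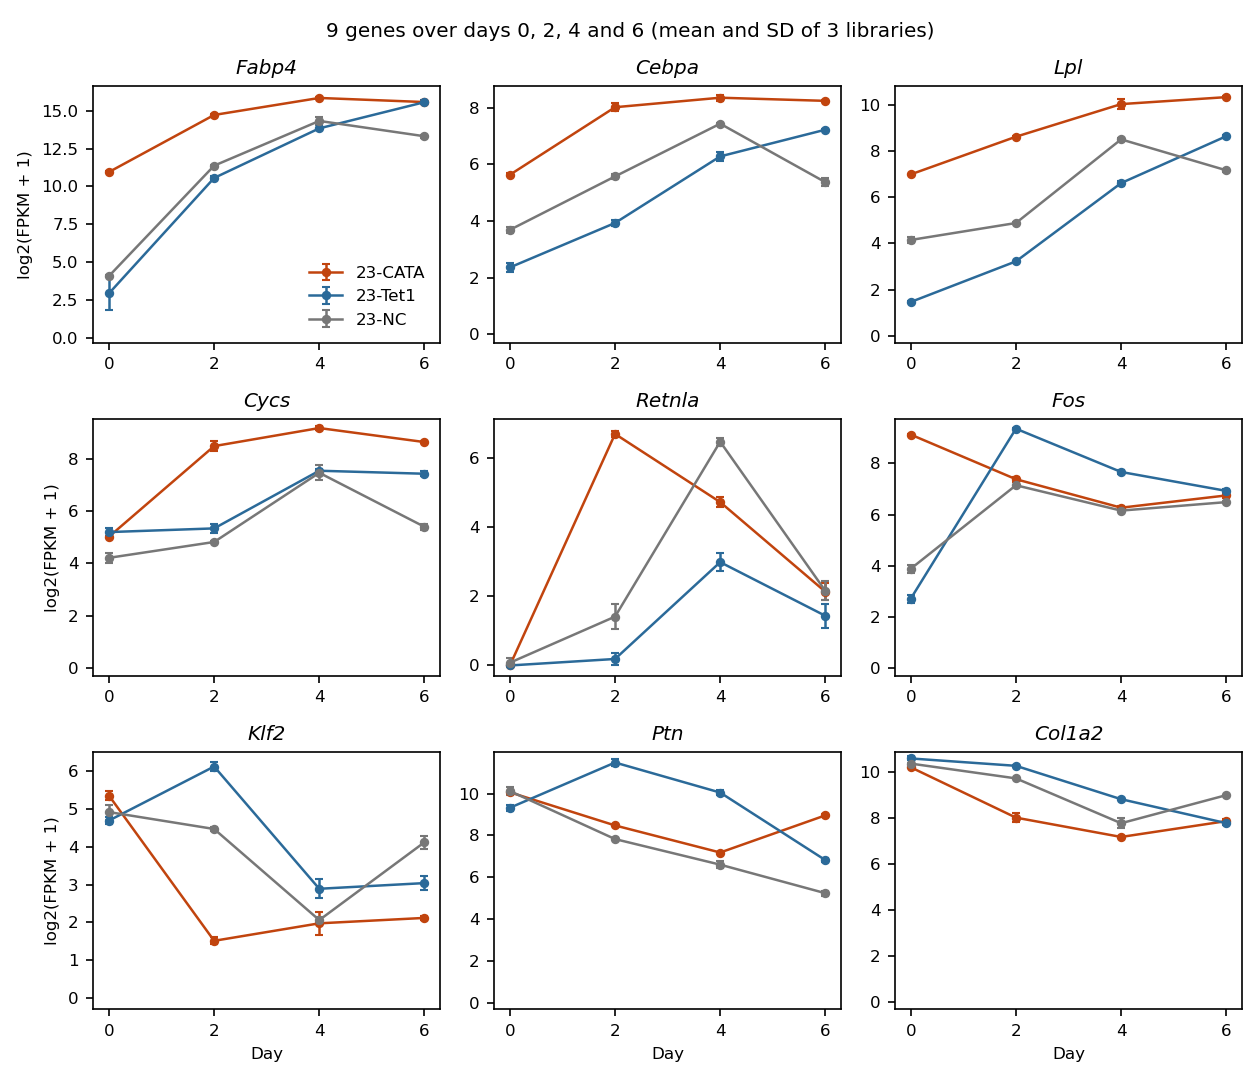
Mean log2(FPKM + 1) of 3 libraries with SD bars at days 0, 2, 4 and 6 for 9 genes in 23-CATA, 23-Tet1 and 23-NC. The y axes start at about 0 and differ in height. In 23-CATA, Fabp4, Cebpa and Lpl are above 23-Tet1 at days 0, 2 and 4, Cycs and Retnla part at day 2, and Fos and Klf2 are highest in 23-Tet1 at day 2.

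**Figure D5:**
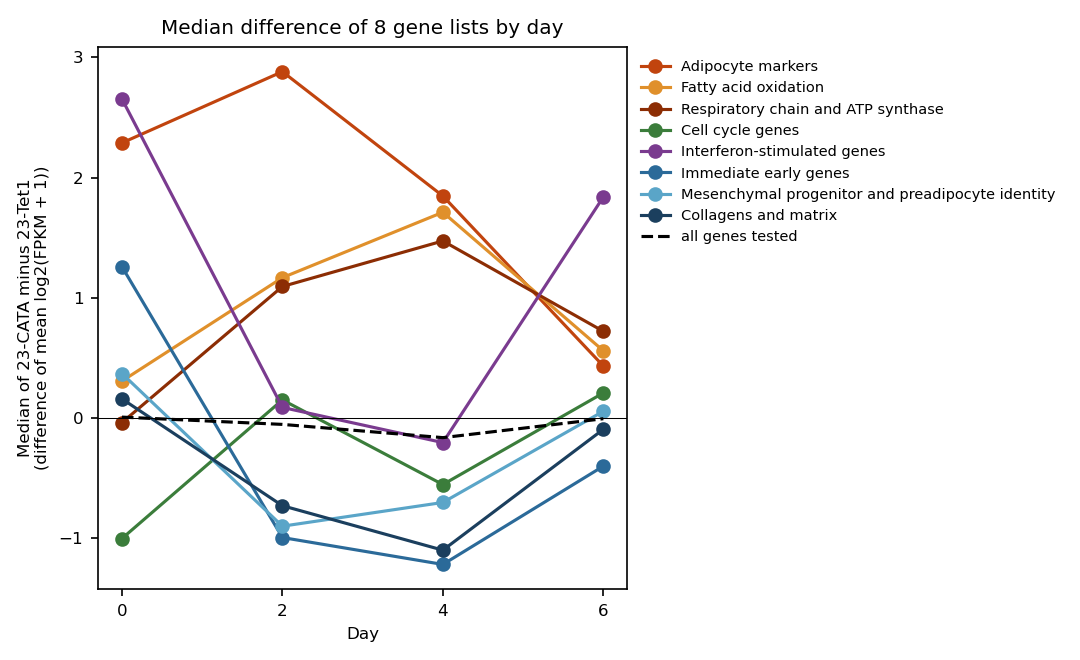
Median over list members of the difference of mean log2(FPKM + 1), 23-CATA minus 23-Tet1, at days 0, 2, 4 and 6 for 8 lists, with all genes tested as the dashed line. Adipocyte markers peak at day 2 at 2.88, the respiratory list stands at 1.09 at day 2 and −0.04 at day 0, and the immediate early list at −0.99 at day 2 and 1.26 at day 0.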

How the data were processed

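C3H10T1/2 libraries of polyadenylated RNA were made with the Illumina TruSeq kit from 1 µg of total RNA, per the labels' protocols. STAR 2.4.1a, RSEM and the mm10 build are named in the submitters' processing notes. The values used are the authors' FPKM as deposited, rounded to 2 decimals, for 24982 genes in 36 libraries. They are not counts. A further 24 value columns, those of the other table, were not used.

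Genes reaching 1 FPKM in at least 3 of the 36 libraries entered the test (12231). The log2(FPKM + 1) values of all 12 groups of 3 were modelled together in limma 3.58.1 (R 4.3.3), with lmFit and contrasts.fit followed by eBayes on a mean-variance trend, which left 24 residual degrees of freedom. The threshold was 0.05 after Benjamini-Hochberg adjustment across the 12231 genes. Changes of a difference between days were contrasts of that fit. The procedure was tested on simulated data. Depth was read from the step between low values of 4525 genes with 1 transcript in GENCODE M21, matched by symbol.

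The members, the 41 lists and the alternatives were chosen with earlier results of these data known, so no list is independent evidence of its own direction. Named genes are 12 fixed ones, the 12 largest rises and 12 largest falls whose groups do not overlap and whose higher group averages at least 5 FPKM, at most 3 each way per list under the same conditions, and the 6 largest changes each way since day 0. Unnamed gene models and 26 symbols that had become dates were passed over, and some genes that the rule named are not reported here. Promoters came from RefSeq (GRCm38.p6) and gene coordinates from GENCODE M21 (mm10). Plots used Python 3.11.15, pandas 2.3.3, numpy 2.4.6 and matplotlib 3.10.9. The alternatives tried were 0.1 FPKM as pseudocount, testing every gene, quantile and median-ratio scaling, fitting the 2 groups on their own, weighting libraries, a replicate block, and leaving out each library in turn.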

Additional observations from a re-analysis of the deposited data

Results flagged for a closer look

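The difference between 23-CATA and 23-Tet1 was tested for change between days by interaction contrasts, and 7955 genes changed from day 0 to day 2 and 6581 from day 2 to day 4. Values below are the difference at day 2 minus the difference at day 0, on the log2(FPKM + 1) scale, for the 6 largest changes each way under the naming rule.

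Upward, Ppa1 changed by 4.98, Ceacam1 by 4.72, Acsm3 by 4.48, Cth by 4.42 and Hist1h3h by 4.41. Retnla changed by 6.49, a value that rests on the pseudocount, since all 6 libraries of day 0 are listed at 0. The value of Acsm3 rests on it in part, since its day 0 means lay below the pseudocount in both populations. Hist1h3h is a histone gene with near-identical copies, so its reads are uncertain, and its day 2 values were 6.97, 2.65 and 5.12 FPKM in 23-CATA and 1.34, 1.41 and 0.46 FPKM in 23-Tet1.

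Downward, Fosb changed by −9.26 and Fos by −8.38. Apod, apolipoprotein D, changed by −7.59, averaging 64.4 ± 3.01 FPKM in 23-CATA and 0.113 ± 0.102 FPKM in 23-Tet1 at day 0, and 1.22 ± 0.25 FPKM in 23-CATA and 6.26 ± 0.762 FPKM in 23-Tet1 at day 2 (SD, n = 3 each). Chadl, a matrix protein related to chondroadherin, changed by −6.57. The acute-phase genes Hp and C3 changed by −6.31 and −6.26. Hp averaged 715 ± 23.1 FPKM in 23-CATA and 0.347 ± 0.446 FPKM in 23-Tet1 at day 0, and C3 483 ± 22.1 FPKM in 23-CATA and 0.74 ± 0.185 FPKM in 23-Tet1. Both were still higher in 23-CATA at day 2. The changes of Apod, Hp and C3 rest in part on the pseudocount, since their 23-Tet1 means of day 0 lay below it.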

How the results depend on the processing

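The counts of called genes stayed within 1.5 times under every alternative run. At day 2, genes higher numbered 3685 to 4175 and genes lower 3993 to 4975 under the alternatives on all 36 libraries or the 6 compared, and 3415 to 3627 higher and 4272 to 4363 lower with 1 library left out, against 3705 and 4536. Deviations of same-numbered libraries of the 2 groups correlated at −0.237, 0.049 and 0.043, and those of differently numbered libraries at −0.194 to 0.149. No pairing by number was seen, but deviations from a mean of 3 cannot settle whether same-numbered libraries shared a culture round. With a replicate block 8219 genes were called, 8176 of them shared with the 8241. Of 2743 results for 211 named genes, 2732 kept direction and side of the threshold. Calls of Fgf7, Id1, Pfkm and Smad6 were lost under at least 1 setting; Pfkm was lost under median-ratio scaling (−0.13, adjusted p = 0.071). Tet2, not called, ranged from −0.075 to 0.16 with 1 library left out, below 0 without 23-CATA replicate 1 or 23-Tet1 replicate 1. Library weights did not converge fully. The causes were not tested. Depth limits genes near 0 FPKM, where 1 fragment is a large step.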
